A study of Mus musculus with 3 samples.

Results

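Interferon regulatory factors (IRFs) are the transcription factors that bind the control regions of interferon genes and of the genes that interferon induces. The 6 members described here are Irf1, Irf2, Irf3, Irf5, Irf7 and Irf8. They were taken as every probe set whose array annotation gave 1 of these names, or its synonym, as the only gene symbol. All 6 were found, with 11 probe sets, among 18193 named genes with 34945 probe sets. No probe set that named several genes held a member. Irf1, Irf2 and Irf7 each had 1 probe set, Irf5 and Irf8 had 2 and Irf3 had 4.

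RNA came from 4T1, a mouse mammary carcinoma cell line maintained in RPMI medium with 10% fetal bovine serum, and was hybridised to Affymetrix Mouse Genome 430 2.0 arrays. The 3 groups had 1 array each. They were 4T1 cells in regular medium, 4T1 cells kept for 1 week with medium conditioned by MSCs (the labels' abbreviation, commonly mesenchymal stem or stromal cells), and 4T1 cells isolated after 1 week of contact co-culture with MSCs. The labels give no genetic change or added agent, no culture time for the regular-medium cells, and no isolation step for any cells but those from co-culture, so contact and isolation cannot be told apart. No condition was replicated. Each difference given here is between 2 arrays, carries no replicate error or test, and is only as precise as this number of arrays allows.

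IRF proteins share an amino-terminal DNA-binding domain that recognises repeats of the letters GAAA. IRF3 and IRF5 are largely controlled by phosphorylation of protein already present, after receptors sense foreign or misplaced nucleic acid or bacterial products. IRF1 and IRF7 are also controlled through their transcripts, which interferons induce, and IRF8 is known mainly from myeloid and B cells.

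Values are MAS5 signals, an array unit that summarises the probes of 1 probe set, and signals of different probe sets are not set against each other. Signals below a floor of 42.4, the pooled 40th percentile of all signals, were raised to it before log2 was taken. A signal of at least 149.3, the pooled 60th percentile, is called bright, and a gene bright on at least 1 of the 2 arrays compared is called measured. A difference of at least 2-fold in a measured gene is counted as higher or lower. For a gene with several probe sets, the 1 with the highest mean signal stands for the gene.

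The epithelial markers that identify 4T1 cells, 10 genes including Epcam, Cdh1 and Krt18, were all measured, and their signals summed to 71929, 74164 and 94426 in regular medium, conditioned medium and co-culture. In co-culture against regular medium their median log2 difference was 0.42, and 1 of them, St14, was higher, by 2.04-fold. Of 14 MSC and fibroblast markers, 6 were measured in co-culture against regular medium, and all 6 had positive log2 differences with a median of 0.89. By the 2-fold rule 2 were higher, Bgn at 2.10 (a lower bound, from the floor) and Postn at 1.24, while Col1a2 and Pdgfra had 0.89, Eng 0.65 and Nt5e 0.56. The signals of all 14 summed to 4262, 4584 and 7328 in the same order. Most of the regular-medium sum came from Nt5e, Eng and Postn, with 2157, 937.8 and 765.6 on the array of 4T1 cells alone. Col1a1, Dcn, Thy1, Pdgfrb and Mgp lay at or below the floor on every array. Of 12 leukocyte markers, 3 were measured and none was higher or lower, with summed signals of 983.0, 926.7 and 1016. Ptprc, Tyrobp, Itgam, Cd3e and Cd79a were at or below the floor on every array. The part of RNA from other cells in the values below was not tested.

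The sequences just upstream of the start sites are shown for Irf1 and Irf7, the members whose signals differed at least 2-fold between arrays, and for Irf2, chosen after its motif matches were seen. Each run is the 250 bases before the annotated start site, read along the gene's strand, from RefSeq on build GRCm38.p6. Irf1 lies on the plus strand at chr11:53769764-53770013, Irf2 on the plus strand at chr8:46739495-46739744 and Irf7 on the minus strand at chr7:141266425-141266674. Capitals mark every match, on either strand, to 5 motifs: the IRF core AANNGAAA, the core of the interferon-stimulated response element GAAANNGAAA, which contains the IRF core, the STAT-binding GAS element TTCNNNGAA, the NF-kB consensus, and TATAAA.
Irf1: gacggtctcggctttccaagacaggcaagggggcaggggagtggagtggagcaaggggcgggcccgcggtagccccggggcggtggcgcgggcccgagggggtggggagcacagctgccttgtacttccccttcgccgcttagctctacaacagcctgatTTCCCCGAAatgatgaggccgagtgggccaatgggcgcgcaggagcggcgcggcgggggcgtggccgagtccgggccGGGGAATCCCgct
Irf2: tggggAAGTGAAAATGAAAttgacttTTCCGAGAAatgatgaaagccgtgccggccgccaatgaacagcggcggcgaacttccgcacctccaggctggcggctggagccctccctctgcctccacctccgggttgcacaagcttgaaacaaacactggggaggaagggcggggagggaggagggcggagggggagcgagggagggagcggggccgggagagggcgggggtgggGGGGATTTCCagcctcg
Irf7: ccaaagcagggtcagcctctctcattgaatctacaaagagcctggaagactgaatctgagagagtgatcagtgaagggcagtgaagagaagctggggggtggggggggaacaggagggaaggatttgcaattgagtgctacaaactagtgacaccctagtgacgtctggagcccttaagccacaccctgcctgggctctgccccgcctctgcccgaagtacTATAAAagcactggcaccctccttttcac

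The Irf1 window holds a GAS match at -90 to -82 and an NF-kB match at -13 to -4, counted from the start site. The Irf2 window holds overlapping IRF core matches at -245 to -238 and -239 to -232, the longer response element core at -241 to -232, a GAS match at -224 to -216 and an NF-kB match at -17 to -8. The Irf7 window holds TATAAA at -29 to -24 and no match to the other 4 motifs. TATAAA was added after the Irf7 sequence had been read. Over all 32851 RefSeq promoter windows of the same kind, which run from 250 bases before to 50 bases after a start site, 23.9% held the IRF core, 3.44% the longer core, 8.3% GAS, 8.46% the NF-kB consensus and 13.6% TATAAA.

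The 6 members had 8 such windows, since Irf1 and Irf8 each had 2 start sites. Irf2 was the only member with an IRF core in a window. GAS matches stood in windows of 3 members, Irf1, Irf2 and Irf8, and Irf8 had matches at -171 to -163 and -153 to -145 with TATAAA at -31 to -26. The windows of Irf3 and Irf5 matched none of the motifs. The lowest GC content among the members' windows was 54.7%, that of an Irf8 window, beside a median of 52.7% over all windows. A match is a description of letters in this window and shows no binding.

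**Figure D1:**
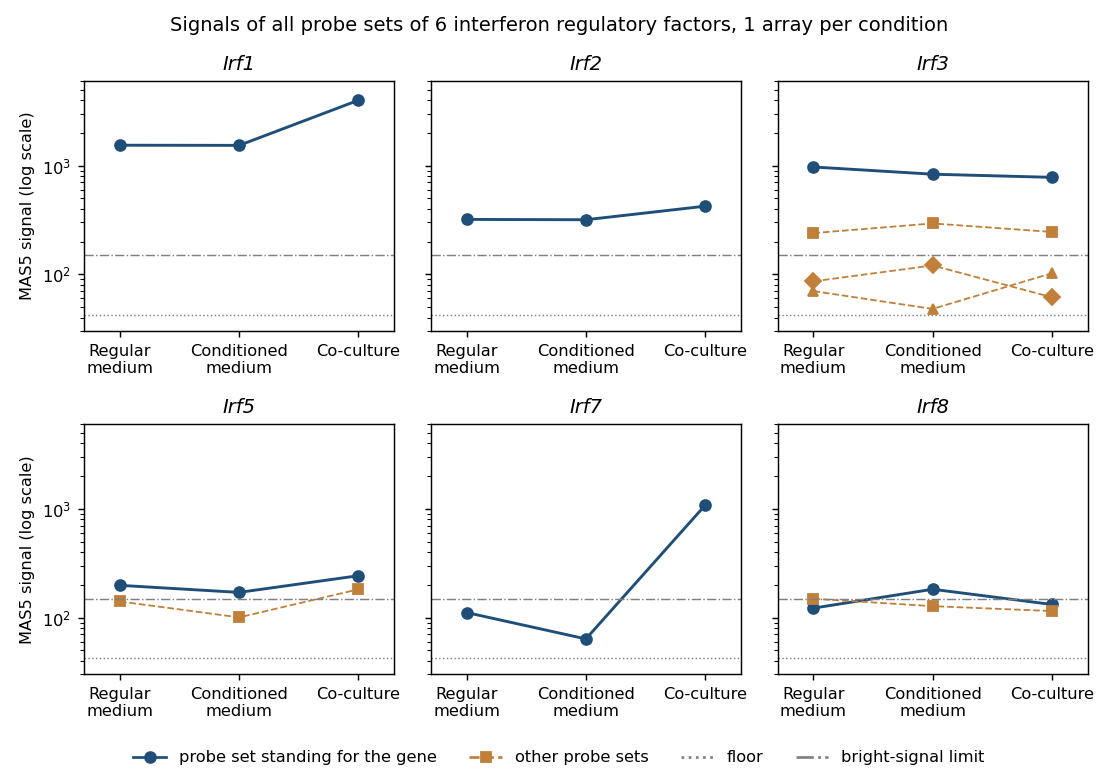
MAS5 signals (log axis) of the 11 probe sets of the 6 members on the regular-medium, conditioned-medium and co-culture arrays, with 1 array per condition. Solid lines join the probe set that stands for a gene and dashed lines its other probe sets, the dotted line is the floor of 42.4 and the dash-dotted line the bright limit of 149.3. The co-culture signals of Irf1 (3993) and Irf7 (1080) stand at least 2-fold above those of both media.

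All 11 probe sets lay above the floor on every array, 8 were bright on at least 1 array and 5 on all 3. The highest of the 3 signals was the co-culture one for 6 probe sets, the conditioned-medium one for 3 and the regular-medium one for 2. The plot of signals by array shows that only the lines of Irf1 and Irf7 rise at least 2-fold among the probe sets that stand for a gene.

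Co-culture was compared with regular medium to see which members differed after contact with MSCs and isolation. Irf7 was 9.72-fold higher and Irf1 2.59-fold higher in co-culture, and the other members differed by less than 1.5-fold. Of the 6 members, 5 were measured in this comparison, 2 were higher and none was lower, and Irf8 was not bright on either array. Over all 9393 genes measured, 5.81% were higher and 2.76% were lower. The median log2 difference was 0.40 over the 5 measured members and 0.07 over all measured genes. An array averages all cells in the sample, so more cells with a transcript and more RNA per cell cannot be told apart.

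Irf7 is the factor through which cells amplify type I interferon production, and its own gene is induced by interferon. The regular-medium array gave a signal of 111.2, the conditioned-medium array 63.6 and the co-culture array 1080. It was bright in co-culture only, and both culture media gave signals above the floor but below the bright limit. Within each array, its signal exceeded 55.4%, 48.2% and 84.8% of all probe sets in the same order. The log2 difference between co-culture and regular medium was 3.28, and 16 of the 9393 measured genes had a larger one.

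Irf1 activates MHC class I and immunoproteasome genes and is induced by interferon gamma and by NF-kB. Regular medium gave a signal of 1541, conditioned medium 1536 and co-culture 3993. Both media gave nearly equal signals, and co-culture lay above them. The log2 difference between co-culture and regular medium was 1.37, and 251 measured genes, or 2.67%, had a larger one. Unlike Irf7, Irf1 was bright on all 3 arrays.

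Irf2 binds the same sites as IRF1 and is known as its antagonist on many promoters. Its signals were 320.2, 318.0 and 423.7 in regular medium, conditioned medium and co-culture, and the log2 difference between co-culture and regular medium was 0.40. The co-culture array was the highest, and 25.8% of measured genes had a larger difference than Irf2. The probe set is of a kind that Affymetrix marks as shared by more than 1 transcript.

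Irf3 is made in most cells and drives interferon beta after phosphorylation by TBK1. The probe set that stands for it, which is marked as open to cross-hybridisation, had signals of 971.8, 834.1 and 780.4 in regular medium, conditioned medium and co-culture. The other bright probe set had 239.6, 294.0 and 245.6. Regular medium was highest with the first and conditioned medium with the second. Their log2 differences between co-culture and regular medium were -0.32 and 0.04.

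The remaining Irf3 probe sets were above the floor and bright on no array. One had signals of 70.2, 48.1 and 102.5 in the same order, and the other 86.3, 120.7 and 61.6, so they ran in opposite directions. Over 3957 genes with 2 bright probe sets, the median disagreement between the log2 differences of a pair in this comparison was 0.29, and 95% of pairs disagreed by less than 1.07. Irf1 and Irf7 have no other probe set for such a check.

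Irf5 acts downstream of MyD88 and is known for inducing inflammatory cytokines in macrophages. Its main probe set gave 197.9, 170.4 and 242.6 in regular medium, conditioned medium and co-culture. The second gave 140.6, 100.4 and 181.9. Both were lowest in conditioned medium and highest in co-culture, with log2 differences of 0.29 and 0.37 between co-culture and regular medium.

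Irf8 directs the development of dendritic cells and monocytes. Its main probe set gave 122.1, 182.1 and 132.0 in regular medium, conditioned medium and co-culture. It was bright in conditioned medium only. The second gave 148.9, 127.3 and 114.8, and was bright nowhere. These probe sets ordered the arrays differently. The log2 differences between co-culture and regular medium were 0.11 and -0.38. Of the 12 leukocyte markers described above, only 3 were measured in each comparison, and none of these met the 2-fold rule. The others were too dim to be counted.

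Setting conditioned medium against regular medium asked whether MSC-conditioned medium, without contact, went with a difference in the members. No member was higher or lower by the 2-fold rule. Of the 9152 genes measured, 0.109% were higher and 0.306% were lower. Over the 5 measured members the median log2 difference was -0.01, beside 0.01 over all measured genes, and ran from -0.22 for Irf3 and Irf5 to 0.58 for Irf8.

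Irf8 in conditioned medium was 1.49-fold above regular medium by its main probe set, and 0.787% of measured genes had a larger difference. Its second probe set had a log2 difference of -0.23, in the opposite direction. Irf7 had a log2 difference of -0.81, or 1.75-fold lower in conditioned medium, with both signals below the bright limit, so it is not counted as measured here. Irf1 and Irf2 each had -0.01. Among 4092 genes with 2 bright probe sets, the median disagreement within a pair was 0.13, and 95% disagreed by less than 0.52.

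**Figure D2:**
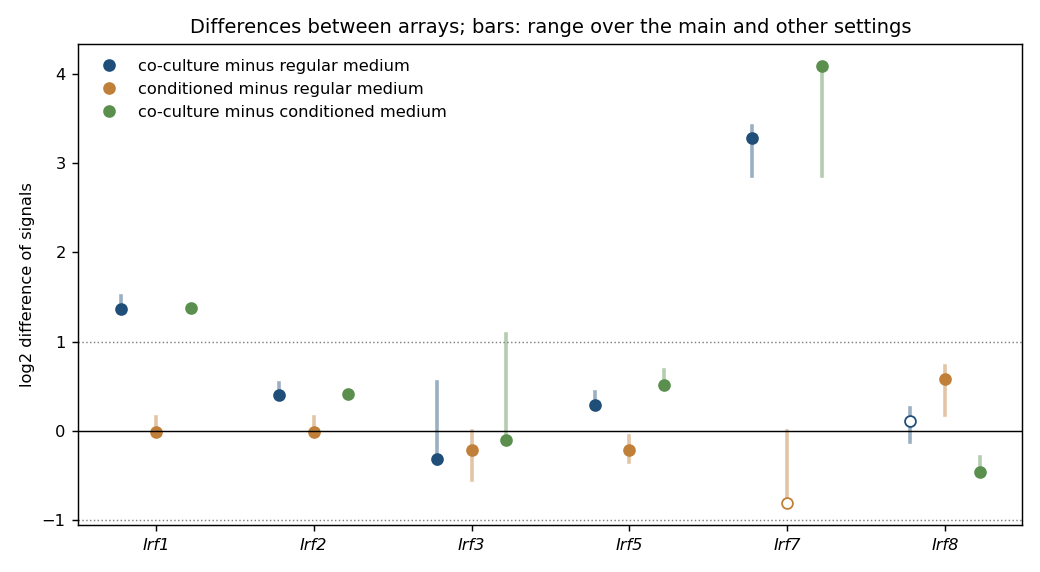
Log2 differences of the members in the 3 comparisons. Points are the values with the main settings (open where neither array was bright), vertical bars the range over these and the other settings, and dotted lines mark 2-fold. Irf1 and Irf7 lie above the upper line in both comparisons with co-culture, and the bars of Irf3 cross 0 in both.

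Co-culture was also compared with conditioned medium, which shares the co-culture array with the first comparison and is not independent of it. Irf7 was 16.99-fold higher and Irf1 2.60-fold higher in co-culture. The Irf7 log2 difference of 4.09 became 2.86 with the floor at the 60th percentile of signal, which lies above both dim signals of Irf7. All 6 members were measured, 2 were higher and none was lower, beside 5.83% higher and 2.6% lower among 9350 measured genes. The log2 differences of the others were 0.51 for Irf5, 0.41 for Irf2, -0.10 for Irf3 and -0.46 for Irf8. The other Irf3 probe sets had -0.26, 1.09 and -0.97, of which only the first was bright. The second probe sets of Irf5 and Irf8 had 0.86 and -0.15. The larger difference of Irf7 in this comparison follows from its conditioned-medium signal of 63.6 against 111.2 in regular medium, both dim.

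**Figure D3:**
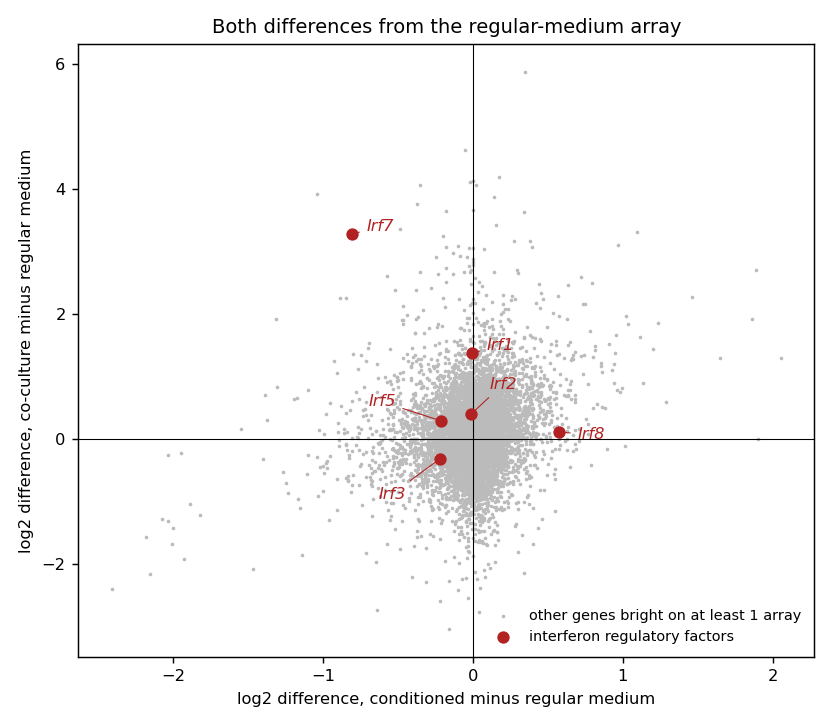
Each point is 1 of the genes bright on at least 1 of the 3 arrays, with the log2 difference between conditioned and regular medium on the x axis and between co-culture and regular medium on the y axis. The members are in red. Irf7 lies apart at -0.81 and 3.28, where the x value comes from signals that were both dim and depends on the floor. Irf1 lies at -0.01 and 1.37, and both axes share the regular-medium array.

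Likeness to a member was measured as the distance between genes over these paired log2 differences. The search started from 9452 genes bright on at least 1 of 3 arrays. Placeholder symbols, such as those of the Gm, LOC and Rik kinds, were then set aside. The ranks and the counts within 0.5 given here therefore leave such symbols out. The 3 genes nearest to Irf7 were Oas1a, an oligoadenylate synthetase, at 0.33, Ifit3, an interferon-induced protein of the IFIT family, at 0.61, and Arrdc4, an arrestin-domain protein, at 0.65. Their co-culture signals were 4009, 599.6 and 1478, against 389.9, 63.0 and 108.6 in regular medium. Only 1 gene lay within 0.5 of Irf7. The position of Irf7 rests partly on its log2 difference of -0.81 between conditioned and regular medium, where both signals were dim. That difference became 0.00 with the floor at the 60th percentile. Around Irf1, 503 genes lay within 0.5, and the nearest were Wfs1, an endoplasmic reticulum membrane protein, at 0.00, Grina at 0.03 and the proton pump subunit gene Atp6v0d1 at 0.03. With 3 arrays, nearness describes these samples only.

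Outside the members, Irf9, the DNA-binding part of a complex that type I interferon activates, had signals of 153.9, 136.0 and 1022 in regular medium, conditioned medium and co-culture. It was 6.64-fold higher in co-culture than in regular medium and, like Irf7, lay above both media. Irf4 was dim on all arrays, with 51.1, 42.0 and 31.3. The IRF2-binding corepressor gene Irf2bp2 had 1934, 2300 and 4571 and was 2.36-fold higher, and its other 3 probe sets had log2 differences of 1.66, 0.97 and 0.68. Irf2bpl was 2.4-fold higher by its main probe set, and its other probe set above the floor had a difference of 0.86. It did not meet the rule with the mean of its probe sets. Irf2bp1 had a difference of 0.31.

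The rest of the pathway was described by gene lists chosen with earlier results of these data known, so their counts are no independent support for the members' values. Beside every list stand the 6 measured MSC markers with their median of 0.89. So do the 5.81% of genes higher and 2.76% lower among all 9393 measured in co-culture against regular medium. Of 15 measured sensors, adaptors and kinases that act upstream of IRF3, IRF5 and IRF7, 6 were higher and 1 was lower in co-culture than in regular medium. Dhx58 (LGP2), a regulator of RNA sensing, was at least 6.94-fold higher from a signal at the floor, and did not meet the rule with the mean of its 3 probe sets. The RNA sensors Ifih1 (MDA5) and Ddx58 (RIG-I) were 4.24-fold and 2.91-fold higher, with Ddx58 at 648.8, 555.4 and 1889. Ticam1, the adaptor of TLR3, was 3.64-fold higher, with 48.3, 113.7 and 175.7. Tlr3 was 2.17-fold and Trim25, a ubiquitin ligase of RIG-I, 2.21-fold higher, the latter not with the mean of its probe sets.

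Among the kinases that phosphorylate IRF3 and IRF7, Ikbke had signals of 195.2, 150.7 and 70.3 and was 2.78-fold lower in co-culture. Ikbke did not meet the rule with the floor at the 60th percentile. Tbk1 had 2626, 2562 and 2019, a log2 difference of -0.38 that did not meet the rule. The median over the 15 genes was 0.35.

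Among interferons, their receptors, JAKs and STATs, 9 genes were measured, Jak2 was 2.03-fold higher and no gene was lower. The median was 0.37. Jak2 did not meet the rule after quantile normalization or with the mean of its probe sets. The interferon genes Ifna2, Ifna4 and Ifng were at or below the floor on every array, and Ifnb1 had signals of 65.1, 47.4 and 34.8, so no interferon transcript of this list was bright. Stat2 had a difference of 0.86.

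Of 12 measured genes known as IRF1 targets, 8 were higher in co-culture and 0 were lower. Their median was 1.26, beside 0.07 over all genes. Tap1, a subunit of the peptide transporter, Gbp2, a guanylate-binding protein, Psmb8, an immunoproteasome subunit, and Gbp3 had log2 differences of 2.64, 1.90, 1.88 and 1.84. With the mean of all probe sets, of which Tap1 has 4, Tap1 did not meet the rule and 6 genes of the list did. Nlrc5, which activates MHC class I genes, was 2.64-fold higher with 228.5, 235.7 and 603.6. Ciita, its counterpart for MHC class II, and Nos2 were at or below the floor on every array.

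Of 9 measured genes known as targets of IRF3 and IRF7, 7 were higher and 0 were lower. Their median was 2.17. This is the value of Mx2, a lower bound, since its regular-medium signal of 8.9 was raised to the floor. The median was 2.25 with the floor at the 20th percentile and 1.51 at the 60th. In regular medium Usp18, Ifit1 and Ifit3 were dim, with 55.1, 84.6 and 63.0. Usp18, Ifit1, Ifit3 and Rsad2 had differences of 5.88, 4.07, 3.25 and 2.25. Rsad2, an antiviral enzyme, had a signal of 222.1, 123.5 and 1059 in regular medium, conditioned medium and co-culture. Ifit2 had 0.45 and the chemokine gene Ccl5 0.70, and neither met the rule.

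The lists tied to IRF5 and IRF8 were mostly dim. Of 7 cytokine genes known as IRF5 targets, Il23a was the only one measured, with a difference of 0.47, and Il6, Il12a, Tnf and Ccl3 were at or below the floor on every array. Of 8 IRF8 partners and myeloid genes, 4 were measured, none met the rule, and the median was -0.13. Batf3, a partner of IRF8 in dendritic cells, had signals of 149.1, 177.1 and 165.9.

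Among 8 measured genes that restrain IRFs or interferon signalling, Usp18, also counted above, and Trim21 were higher and no gene was lower by the probe sets that stand for the genes. Without probe sets marked _s_at, _x_at or _a_at, Ptpn2 was lower. The median was -0.07. Trim21, a ubiquitin ligase that acts on several IRFs, had 175.3, 198.1 and 561.9 and was 3.21-fold higher in co-culture. Socs3 had a log2 difference of -0.67 and Tnfaip3 0.03. In conditioned medium against regular medium, none of the 53 measured genes of these lists met the rule in either direction. Few genes did so at all in that comparison, with 0.109% higher and 0.306% lower among the 9152 measured.

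**Figure D4:**
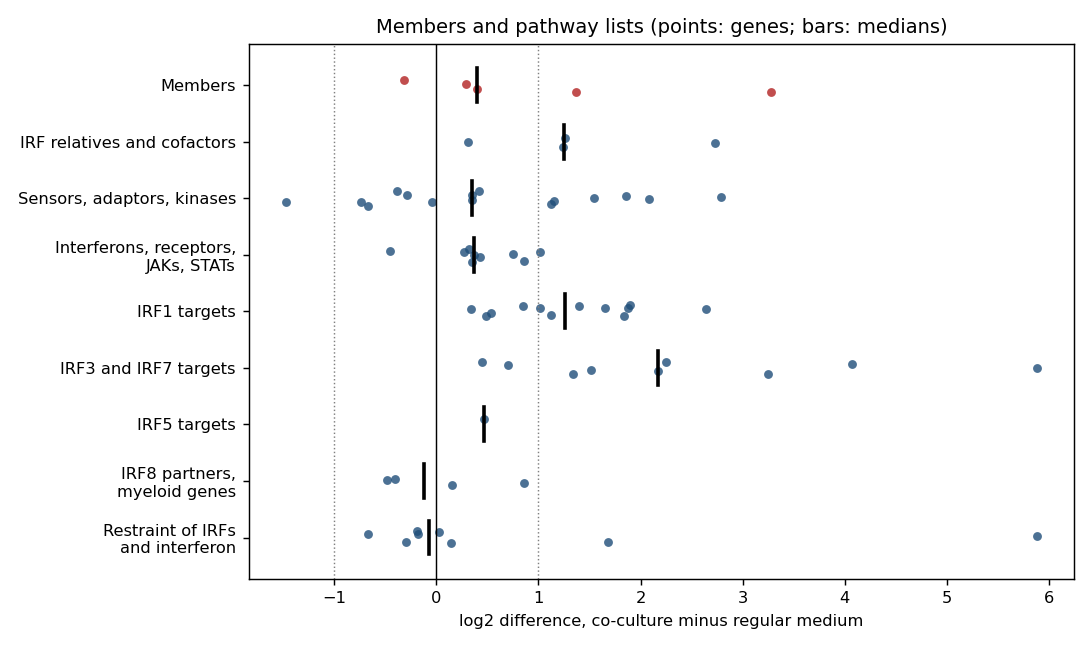
Log2 differences between co-culture and regular medium for the 5 measured members (red) and the measured genes of 8 pathway lists (blue), with black bars at the medians and dotted lines at 2-fold. The IRF1 targets have their median at 1.26. That of the IRF3 and IRF7 targets, 2.17, is the value of Mx2 and depends on the floor. The members' median is 0.40 with Irf1 and Irf7 to its right.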

How the data were processed

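The deposited values are intensity signals on a linear scale, produced by the authors using MAS5, per the submitters' processing notes. Neither its version nor its target level is stated there. MAS5 scales each array, and the 2%-trimmed means were 497.8, 497.7 and 498.0 in regular medium, conditioned medium and co-culture, so no further scaling was applied. Between 38.0% and 41.4% of probe sets per array lay at or below the floor, which is no detection call.

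Of 45037 probe sets, 34945 had 1 gene symbol, 932 several and 9160 none. The gene ID gave a current symbol for 34741. Log2 differences and the 2-fold rule were computed for all genes, and the procedure was tested on simulated data. That simulation used a set noise level and added folds only to genes well above the bright limit in regular medium. It therefore does not bear on genes that were dim or little above that limit there, among them Irf5, Irf7, Irf8 and Irf9. The members, lists and rules were chosen with earlier results of these data known. Named list genes were up to 4 per list by size of difference among those meeting the rule, with genes behind counts of 5 or fewer. Tlr3, Trim25, Ptpn2, Ifit2, Ccl5, Rsad2's signals, Nlrc5, Stat2, Tbk1, Socs3, Tnfaip3 and Batf3 were named after their values were seen. The same holds for Mx2, the genes at the floor and the dim signals of Usp18, Ifit1 and Ifit3. Ddx58 was matched to the listed name Rigi as the same gene. Alternatives varied the scaling, the floor, the filter on dim signals, the choice of probe set and the fold rule. Python 3.11.15, NumPy 2.4.6, pandas 2.3.3 and Matplotlib 3.10.9 were used.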

Additional observations from a re-analysis of the deposited data

How the results depend on the processing

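Irf7 was higher in both comparisons with co-culture under all 9 other settings that gave it a value, with log2 differences from 2.86 to 3.42 against regular medium and from 2.86 to 4.09 against conditioned medium. Irf1 kept its call under 8 of 9, with 1.37 to 1.51 and 1.36 to 1.40, and lost it under the 3-fold rule, which left 1 member higher in each of these comparisons. Without probe sets marked _s_at, _x_at or _a_at, Irf1, Irf2 and Irf7 have no probe set, and 0 of the 3 remaining members were higher or lower. Irf3 ran from -0.37 to 0.55 and Irf8 from -0.13 to 0.25 in co-culture against regular medium, so neither had a stable direction. In co-culture against conditioned medium, Irf3 ran from -0.13 to 1.09. In conditioned against regular medium, Irf7 ran from -0.81 to 0.00, the latter with the floor at the 60th percentile, and Irf8 from 0.18 to 0.73. Median scaling moved the median of all genes in co-culture against regular medium from 0.07 to 0.21.

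The settings were applied to the lists after the data were seen, for co-culture against regular medium. Over all measured genes, 16.9% were higher and 9.86% lower with the 1.5-fold rule, and 1.75% and 0.617% with the 3-fold rule. Median scaling gave 8.54% and 1.78%, and quantile normalization 5.8% and 2.83%. The floor at the 60th percentile gave 4.9% and 1.94%, and the signal filter at the 80th percentile 5.09% and 2.22%. The mean of all probe sets gave 4.09% and 2.68%. The interferon, receptor, JAK and STAT list had 0 calls with quantile normalization, 2 with median scaling, 3 with the 1.5-fold rule and 0 with the 3-fold rule, in place of 1. The sensor and kinase list had 4 in place of 7 with the higher floor, 4 with the signal filter at the 80th percentile and 3 with the 3-fold rule. With that filter the IRF1 targets had 4 in place of 8, the IRF3 and IRF7 targets 4 in place of 7 and the restraint list 1 in place of 2. The 3-fold rule left 5 IRF1 targets, and Irf9 as 1 of the 3 IRF relatives and cofactors. Leaving out the marked probe sets, which removes Irf9, left Irf2bp2 as 1 of these 3. The 1.5-fold rule gave 1 call in the IRF8 list, in place of 0, and made Socs3 lower in the restraint list. The mean of all probe sets gave 5 calls in the sensor list, without Dhx58 and Trim25, 6 IRF1 targets, without Tap1 and Tapbp, and Stat2 in place of Jak2. Dhx58, Ticam1 and Ikbke all lost their calls with the higher floor and with the stricter filter. Ikbke, the only gene of the sensor list that was lower, also lost its call with the 3-fold rule, as did Tlr3, Ddx58 and Trim25. In conditioned against regular medium, Ticam1 was higher without the signal filter and Rsad2 lower with the 1.5-fold rule. Over all genes tested, 0.324% were higher in the first of these settings and 1.46% lower in the second.

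No paired analysis was possible because each group has 1 array, and leaving out an array was not run for the same reason.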
